A study of Mus musculus with 6 samples.

Results

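Tetraspanins are membrane proteins that span the membrane several times, carry short tails and a large outer loop, and gather other proteins into patches of the plasma membrane and of endosomes. Each member has its own partners: the TspanC8 members carry the protease ADAM10 out of the endoplasmic reticulum, CD151 holds laminin-binding integrins, CD9 and CD81 bind immunoglobulin-like proteins, and CD63 travels through late endosomes and exosomes. Palmitoyltransferases attach palmitate to many members, which helps them to cluster.

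The family was taken as every gene named Tspan with a number, plus Cd9, Cd37, Cd53, Cd63, Cd81, Cd82 and Cd151. This gave 26 genes, 19 of Tspan name and 7 of CD name, of 19938 genes measured. Each had 1 probe set. Tspan7 was not analysed here. The members were chosen by name, but the family itself was selected on earlier results of these arrays, the mutant minus control differences of Tspan4 and Tspan17. The values of these 2 genes are therefore a description without a test.

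The arrays hold RNA from the granule cell layer of the dentate gyrus (DG), cut by laser capture microdissection from brain sections stained with cresyl violet. There were 3 control and 3 Bcl11b mutant arrays, all on Affymetrix whole-transcript arrays. Mutants came from a cross of Bcl11b flox/flox mice with tetO-Cre and CaMKIIα-tTA lines, in which the CaMKIIα promoter drives the tet-off activator in forebrain neurons. Cre is therefore held off by doxycycline. For the controls of this tet-off line, neither the labels nor the methods state a genotype. Both groups drank doxycycline through embryogenesis up to 2 months of age, and tissue was taken 4 weeks after its removal. The methods give n = 3, and the sample titles carry different numbers, but no source states that each array is a separate animal. The p-values set the difference between the groups against the spread among these samples, which may not be the spread among animals. The number of arrays limits the precision, and an exact permutation test of 3 against 3 arrays cannot give a two-sided p below 0.1.

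Bcl11b, the deleted transcription factor, was measured at 10.56, 10.40 and 10.30 (log2 expression) in controls 1 to 3 and at 9.03, 8.68 and 8.82 in mutants 1 to 3. It fell by 1.58 on the log2 scale (limma adjusted p = 2.56e-05), and the groups did not overlap. Of the 8 granule cell markers, 5 were lower and 1 was higher in mutants (62.5% and 12.5%, beside 5.93% and 9.23% of all genes). None lay under the array median on all arrays. Prox1, which defines these cells, differed by -0.051 (adjusted p = 0.788). Control 1 stood apart on the second principal component, at 16.3 against -11.8 to 1.85 for the other 5 arrays. This component held 14.5% of the variance. Some values that rest on control 1, but not all, are given with and without it.

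Among the 26 tetraspanins, 4 were higher and 2 were lower in mutants at an adjusted p under 0.05 (limma), and 20 did not pass. Over all genes, 9.23% passed as higher and 5.93% as lower. Without Tspan4 and Tspan17, 2 of 24 members passed as higher and 2 as lower, 8.33% in each direction. Over all 26, 4 passed as lower without control 1, and 1 without control 2, mutant 1 or mutant 3. Of the 24, 1 passed as higher without control 2, mutant 1, mutant 2 or mutant 3. The groups of 3 arrays did not overlap in 12 of the 26 members and in 10 of the 24, against 31.6% of all genes. The median difference, mutant minus control, was -0.035 for the 26 members on the log2 scale and -0.0027 for all genes. The median over the tested genes was 7.02 to 7.03 in controls and 7.07 to 7.08 in mutants. Centred on these array medians, 1423 genes passed as higher and 1800 as lower, in place of 1840 and 1183, so 44.2% of calls were higher instead of 60.9%. Among tetraspanins this centring gave 4 higher and 4 lower. RMA sets arrays to a common distribution, so a change shared by all genes cannot be seen here.

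**Figure D1:**
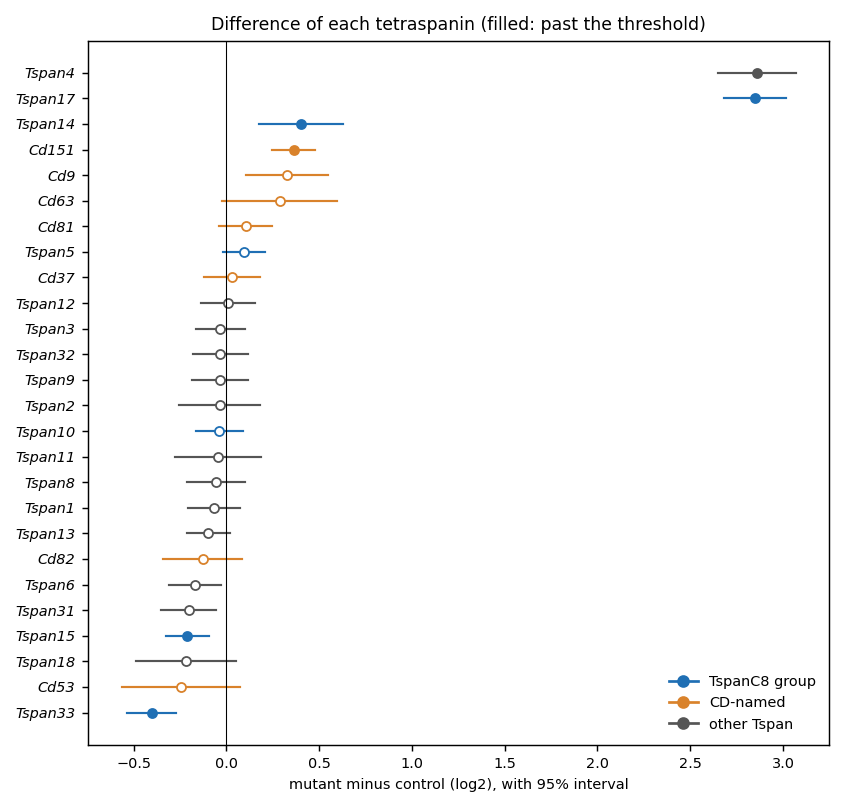
Mutant minus control difference of each tetraspanin (x axis, log2) with its 95% interval, with the genes on the y axis, coloured by group and filled where the adjusted p is under 0.05. Tspan4 and Tspan17 lie at 2.86 and 2.85, and the other 24 lie between -0.40 and 0.40.

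Tspan17, a TspanC8 member that binds ADAM10, was measured at 8.62, 8.77 and 8.57 (log2 expression) in controls 1 to 3. In mutants 1 to 3 it was measured at 11.39, 11.56 and 11.56. The groups lay far apart, with 2.62 between the highest control and the lowest mutant. The difference was 2.85 with an SE of 0.074 (95% interval 2.68 to 3.02), which is 7.21-fold.

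Tspan4, known from migrasomes, the vesicles that form on the retraction fibres of moving cells, was measured at 7.22, 6.90 and 7.14 in controls 1 to 3. In mutants 1 to 3 it was measured at 10.00, 9.81 and 10.03. Its difference was 2.86 with an SE of 0.093 (95% interval 2.65 to 3.07), which is 7.25-fold, and the gap between the groups was 2.59. The mean and SD were 8.65 ± 0.10 in controls and 11.50 ± 0.10 in mutants for Tspan17, and 7.09 ± 0.16 and 9.95 ± 0.12 for Tspan4 (n = 3 each). Without any 1 array, the difference of Tspan17 lay between 2.81 and 2.91 and that of Tspan4 between 2.77 and 2.93.

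**Figure D2:**
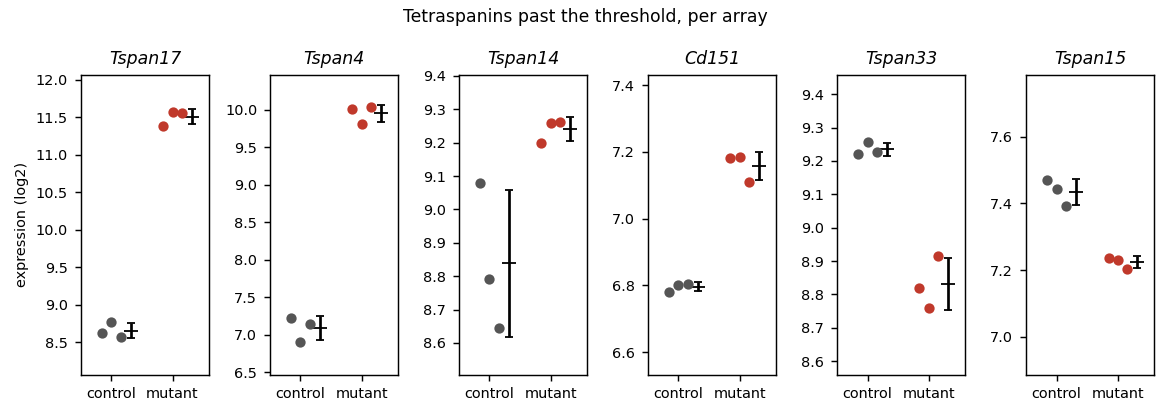
Log2 expression (y axis, own scale for each gene) of the 6 tetraspanins past the threshold in each control (grey) and mutant (red) array, with mean and SD (bars, n = 3). The groups do not overlap in any of the 6, and the step is near 3 for Tspan17 and Tspan4 and under 0.5 for the other 4.

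The sequences in front of the start sites of Tspan17 and Tspan4 are shown because these genes had the largest differences, with those of Tspan33 and Tspan15 as the members that were lower. Each is the 250 bases before a RefSeq start on build GRCm38.p6, read 5′ to 3′ on the strand of the gene. Capitals mark TGGGC, the letters proposed as a Bcl11b binding site, or its reverse complement GCCCA. Tspan4 has 2 starts in RefSeq.
Tspan17, chr13:54789155-54789404, plus strand: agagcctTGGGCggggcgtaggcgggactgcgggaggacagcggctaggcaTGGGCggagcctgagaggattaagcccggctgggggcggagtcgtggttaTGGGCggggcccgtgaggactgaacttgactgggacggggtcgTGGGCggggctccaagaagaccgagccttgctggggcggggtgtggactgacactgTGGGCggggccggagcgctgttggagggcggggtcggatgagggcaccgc
Tspan4, chr7:141474986-141475235, plus strand: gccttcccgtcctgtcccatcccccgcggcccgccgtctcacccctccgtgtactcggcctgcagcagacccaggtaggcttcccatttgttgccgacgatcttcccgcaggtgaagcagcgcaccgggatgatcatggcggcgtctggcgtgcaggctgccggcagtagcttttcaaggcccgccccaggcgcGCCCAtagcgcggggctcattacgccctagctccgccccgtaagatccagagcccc
Tspan4, chr7:141476130-141476379, plus strand: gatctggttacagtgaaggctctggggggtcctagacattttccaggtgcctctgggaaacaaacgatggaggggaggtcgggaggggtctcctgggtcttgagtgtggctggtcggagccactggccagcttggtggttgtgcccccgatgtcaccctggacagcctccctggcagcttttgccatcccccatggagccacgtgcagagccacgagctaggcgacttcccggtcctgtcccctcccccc
Tspan33, chr6:29693964-29694213, plus strand: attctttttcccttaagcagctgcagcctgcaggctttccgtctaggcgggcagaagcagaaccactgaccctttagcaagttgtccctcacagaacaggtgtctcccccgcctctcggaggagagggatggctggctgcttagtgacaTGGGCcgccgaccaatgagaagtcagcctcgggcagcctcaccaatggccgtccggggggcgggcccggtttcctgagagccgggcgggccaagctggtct
Tspan15, chr10:62231219-62231468, minus strand: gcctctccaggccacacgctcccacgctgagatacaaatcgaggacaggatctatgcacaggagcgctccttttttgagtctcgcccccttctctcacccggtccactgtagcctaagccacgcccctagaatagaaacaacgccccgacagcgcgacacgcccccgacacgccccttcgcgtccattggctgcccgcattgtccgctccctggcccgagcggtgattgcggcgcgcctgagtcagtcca

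The Tspan17 window held 5 copies of TGGGC, a number that 0.387% of the 32851 RefSeq windows reach. Its GC content was 70.8%, against a median of 52.4% over all windows. All 5 lay on the strand of the gene, at 243, 199, 149, 106 and 50 bases before the start, so they were 44, 50, 43 and 56 bases apart. Each was followed by GG, so every copy overlapped the GC box letters GGGCGG, of which the window held 8. TGGGCGG, a pattern looked for after this sequence was seen, occurred at least 5 times in 3 windows (0.00913%) and at least once in 9.09%.

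The windows of Tspan4 held 1 and 0 copies of TGGGC, that of Tspan33 held 1 and that of Tspan15 held 0. The windows of Cd151, which was higher, held 4 and 1 copies, and those of Tspan14, also higher, held 1 and 2. A window each of Cd82 and Tspan2, which did not pass, also held 4 copies. At least 4 copies occurred in 1.48% of all windows. Among all tetraspanins, 35 windows of 25 members were in the table (Tspan18 was not). TGGGC occurred on either strand in 51.4% of them and in 50.7% of all windows, GGGCGG in 42.9% and 32.7%, and the TATA box letters TATAAA in 2.86% and 12.4%. CCAAT occurred in 31.4% and 33.8%, and the CRE letters TGACGTCA in 0% and 1.55%. The median GC content was 57.6% against 52.4%. A match describes letters and does not show that a factor was bound.

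The 6 TspanC8 members, which share ADAM10 as a partner, include Tspan17, described above. Of the other 5, Tspan14 was higher in mutants, Tspan33 and Tspan15 were lower, and Tspan5 and Tspan10 did not pass. Tspan33 was measured at 9.22, 9.26 and 9.23 in controls 1 to 3 and at 8.82, 8.76 and 8.91 in mutants 1 to 3. All 3 mutants lay below every control. The difference was -0.40 with an SE of 0.057 (limma adjusted p = 0.00186), and it passed without any 1 of the 6 arrays.

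Tspan14 was measured at 9.08, 8.79 and 8.65 in controls 1 to 3 and at 9.20, 9.26 and 9.26 in mutants 1 to 3. The mutants lay close together, and the highest control, control 1, came within 0.12 of the lowest mutant. The difference was 0.40 with an SE of 0.0999 (95% interval 0.18 to 0.63, limma adjusted p = 0.0271). It remained past the threshold without control 1. With the methods' t-test after adjustment it missed the threshold, which left 1 of the 24 members as higher. Without control 2, control 3, mutant 1, mutant 2 or mutant 3 the limma adjusted p was 0.102, 0.0577, 0.0757, 0.0938 and 0.0969.

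Tspan15 was measured at 7.47, 7.44 and 7.39 in controls 1 to 3 and at 7.24, 7.23 and 7.20 in mutants 1 to 3. Every mutant lay below every control. The difference was small, -0.21 with an SE of 0.051 (95% interval -0.33 to -0.096, limma adjusted p = 0.0237). The call was lost without control 2, mutant 1, mutant 2 or mutant 3 (limma adjusted p = 0.0813, 0.0745, 0.0729 and 0.0943).

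Tspan5, which also escorts ADAM10 and is known in neurons, was measured at 11.92, 11.88 and 11.89 in controls and at 11.97, 12.03 and 11.98 in mutants. The groups did not overlap, but the difference of 0.093 did not pass (95% interval -0.021 to 0.21, limma adjusted p = 0.284). Tspan10, which lay under the array median on all 6 arrays, differed by -0.038 (95% interval -0.17 to 0.089, limma adjusted p = 0.735).

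ADAM10 cleaves the outer part of many membrane proteins at the cell surface. Its own transcript, Adam10, was measured at 10.19, 10.22 and 10.24 in controls and at 10.22, 10.21 and 10.22 in mutants. The values of the groups overlapped. The difference was -0.0023 (95% interval -0.11 to 0.11, limma adjusted p = 0.986). Of 31 measured genes of the ADAM10 system, 7 were higher and 1 was lower, 22.6% and 3.23% beside the 9.23% and 5.93% of all genes. The median difference was 0.12 against -0.0027 for all genes, and without control 3 2 were lower.

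Timp3, an inhibitor of metalloproteases, was measured at 7.34, 7.28 and 7.58 in controls and at 8.54, 9.33 and 8.71 in mutants, a difference of 1.46 (limma adjusted p = 8.86e-04). The mutants all lay above the controls and were more spread. Among the substrates, Dcc, a netrin receptor, was higher by 0.78 (adjusted p = 5.85e-04) and Notch2 by 0.62 (adjusted p = 0.00128). The adhesion protein N-cadherin, Cdh2, was higher by 0.47 (adjusted p = 0.00261), L1cam by 0.62 (adjusted p = 0.00414) and Aplp2, a relative of the amyloid precursor protein, by 0.37 (adjusted p = 0.00246). Kl, which encodes klotho, was the member that fell, with a difference of -0.58 (adjusted p = 4.92e-04). With the methods' t-test and Benjamini-Hochberg adjustment, 2 genes of this list were higher and 1 lower, and Timp3 (0.0628), Notch2 (0.0531), Cdh2 (0.0567) and L1cam (0.0930) missed the threshold.

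**Figure D3:**
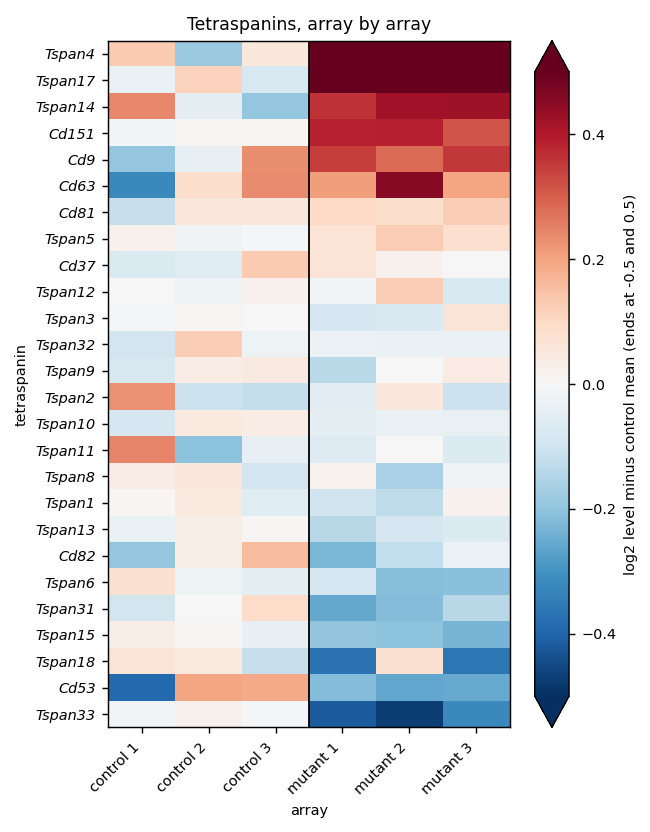
Log2 expression of each tetraspanin (y axis) on each array (x axis) minus the mean of the controls, with colours that end at -0.5 and 0.5. Tspan4 and Tspan17 exceed the scale in all 3 mutants, and most of the other rows are pale, with 19 of the 26 differences within 0.25 of 0 and control 1 blue in Cd53 and Cd63.

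Of the 7 members of CD name, 1 passed as higher and none as lower with limma (14.3% and 0%, beside 9.23% and 5.93% of all genes). At an unadjusted limma p under 0.05 the counts were 2 and 0, beside 5419 of all 19938 genes in either direction. The methods' t-test without adjustment gave no CD-named member as lower either. Cd151, a partner of laminin-binding integrins, was measured at 6.78, 6.80 and 6.80 in controls 1 to 3 and at 7.18, 7.18 and 7.11 in mutants 1 to 3. The controls lay within 0.025 of each other and below all mutants. The difference was 0.36 with an SE of 0.051 (limma adjusted p = 0.00174), and it passed without any 1 array.

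Cd151 and Tspan4 lie close to each other on chromosome 7 in the RefSeq gene order, with Polr2l between them. Polr2l, a subunit of RNA polymerases, differed by 0.012 (limma adjusted p = 0.930). On the far side of Tspan4, Chid1 differed by -0.054 (adjusted p = 0.730). Pnpla2, 3 places before Cd151, was higher by 0.39 with groups that did not overlap (limma adjusted p = 0.0279). The other genes within 3 places of Cd151 or Tspan4, namely Cracr2b, Gm10575, Ap2a2 and Gm16982, did not pass. In 3 other pairs of tetraspanins that were next to each other or had 1 tested gene between them, namely Tspan18 and Cd82, Tspan11 and Tspan9, and Tspan32 and Cd81, no member passed.

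Around Tspan17 on chromosome 13, the next genes were Eif4e1b, which differed by -0.090 (limma adjusted p = 0.374), and Unc5a, a netrin receptor, which was lower with a difference of -0.29 (adjusted p = 0.0246). One gene further on each side, Sncb, which encodes β-synuclein, was higher by 0.34 (adjusted p = 0.00296), and Hk3 differed by 0.093 (adjusted p = 0.357). The third genes on each side, Gprin1 and Uimc1, were lower, with differences of -0.35 and -0.28 (limma adjusted p = 0.00304 and 0.0119). The call of Uimc1 was lost without mutant 1 (limma adjusted p = 0.0529), and that of Unc5a without control 2, mutant 1, mutant 2 or mutant 3 (limma adjusted p = 0.0805, 0.0873, 0.0578 and 0.0983). With the methods' t-test after adjustment both missed the threshold. Within 3 tested genes on each side of all tetraspanins past the threshold, 7 of 31 neighbours outside the family passed with limma. Of all genes, 9.23% passed as higher and 5.93% as lower.

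Cd9, found in many cell types and abundant in glia, was measured at 7.18, 7.33 and 7.60 in controls 1 to 3 and at 7.72, 7.65 and 7.73 in mutants 1 to 3. All mutants lay above all controls, control 3 by 0.049. The difference was 0.33 (95% interval 0.10 to 0.55) and missed the threshold (limma adjusted p = 0.0577). It passed without control 3, at 0.44 (limma adjusted p = 0.00398). Cd81, its close partner, was measured at 11.93, 12.10 and 12.10 in controls and at 12.14, 12.13 and 12.17 in mutants. These groups also did not overlap, and the difference of 0.10 did not pass (95% interval -0.039 to 0.25, limma adjusted p = 0.345).

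Cd63 was measured at 7.87, 8.28 and 8.43 in controls and at 8.40, 8.65 and 8.39 in mutants (difference 0.29, 95% interval -0.022 to 0.60, limma adjusted p = 0.219). Cd82 was measured at 7.65, 7.88 and 8.01 in controls and at 7.62, 7.72 and 7.82 in mutants (difference -0.13, limma adjusted p = 0.447). Both overlapped, and in both control 1 was the lowest control. Over the 18 other settings the difference ran from 0.13 to 0.40 for Cd63 and from -0.22 to -0.047 for Cd82.

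Cd53 and Cd37 are tetraspanins of leukocytes, and Cd53 is known in microglia. Cd53 was measured at 6.34, 6.93 and 6.92 in controls 1 to 3 and at 6.51, 6.47 and 6.48 in mutants 1 to 3. Control 1 lay below all mutants, whereas controls 2 and 3 lay above them. The difference was -0.24 with all arrays (95% interval -0.56 to 0.076, limma adjusted p = 0.321) and -0.44 without control 1 (limma adjusted p = 5.77e-04). Cd37 was measured between 6.28 and 6.49 in controls and between 6.35 and 6.42 in mutants, with a difference of 0.030 (limma adjusted p = 0.839).

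Control 1 was the lowest of the 3 controls in all 7 CD-named members, as it was in 14 of the 26 tetraspanins and in 37.3% of all genes. It was also the lowest control in the mean level of the markers of microglia, oligodendrocytes, astrocytes, vessels and granule cells. The granule cell means were 10.92, 10.98 and 10.96 in controls 1 to 3. In interneuron markers control 2 was the lowest, and in the markers of mossy and pyramidal cells and of immature neurons control 1 was the highest control. The mean log2 level of 15 microglia markers was 6.83, 7.06 and 7.26 in controls 1 to 3 and 6.77, 6.92 and 6.80 in mutants. That of 16 oligodendrocyte markers was 7.42, 7.48 and 7.45 in controls and 7.17, 7.35 and 7.24 in mutants. The microglia means overlapped between the groups, and the oligodendrocyte means of the mutants all lay below those of the controls. The oligodendrocyte means lean on 1 gene, Ermn, at 8.63, 8.15 and 7.29 in controls and 6.06, 6.49 and 6.38 in mutants. Differences of the 16 oligodendrocyte markers ran from -1.71 in Ermn to 0.12, with a median of -0.13. That of 12 astrocyte markers was 8.88, 9.05 and 9.20 against 9.10, 9.33 and 9.14, and that of 12 endothelial and mural markers 6.51, 6.64 and 6.62 against 6.59, 6.82 and 6.72.

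Of the 15 microglia markers, 1 passed, as lower, namely Tmem119 at -0.32 (limma adjusted p = 0.00951), and 2 lay under the array median on all arrays. All 15 differences were below 0, from -0.36 to -0.064, with a median of -0.24 against -0.0027 for all genes. Of the 16 oligodendrocyte markers, 2 passed as lower, Ermn at -1.71 and Ugt8a at -0.34 (adjusted p = 0.00422 and 0.0222), with 2 under the array median. Among astrocyte markers 2 of 12 passed as higher, Slc1a2 at 0.32 and Gfap at 0.54, and none was under the median. Among endothelial and mural markers 2 of 12 passed as higher, Pdgfrb at 0.40 and Flt1 at 0.44, and 4 were under the median. Of all genes, 9.23% passed as higher and 5.93% as lower, against 6.67% and 12.5% as lower in microglia and oligodendrocyte markers. Astrocyte and vessel markers each had 16.7% as higher. The part of these cells in the values of the tetraspanins was not tested. Fewer cells of a type and less RNA per cell cannot be told apart in such samples.

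**Figure D4:**
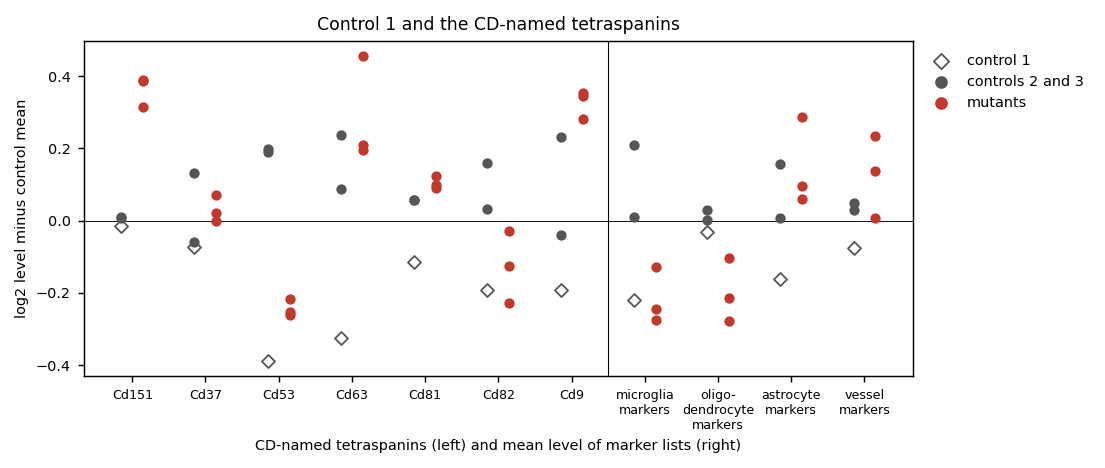
Log2 level minus the mean of the controls (y axis) for the 7 CD-named tetraspanins (left) and for the mean of 4 marker lists (right), with control 1 as open diamonds, controls 2 and 3 in grey and mutants in red. Control 1 is the lowest control in each column, and in Cd53 it lies below the mutants while the other controls lie above them.

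For the other neurons of the region, interneuron markers gave 2 of 9 as lower, Npy at -0.58 and Gad1 at -0.27. Markers of mossy and pyramidal cells gave 2 of 10 as higher and 2 as lower, with Dkk3 at 0.95 and Fibcd1 at -0.94. Markers of immature neurons and progenitors gave 3 of 8 as higher, with Dcx at 1.07 and Sox11 at 0.46. In these 3 lists the shares were 22.2% lower, 20% in each direction and 37.5% higher. Of all genes, 9.23% were higher and 5.93% lower. Of the granule cell markers, C1ql2, a synaptic organiser, differed by -3.29 and Calb1, calbindin, by -0.97. Tdo2, the 1 granule cell marker that was higher, differed by 1.13 (limma adjusted p = 6.55e-05).

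Of the 12 remaining Tspan members other than Tspan4, 0 passed with limma and also 0 with the methods' t-test after adjustment. At an unadjusted limma p under 0.05, 2 were lower, beside 5419 of all 19938 genes in either direction. The first was Tspan31, a gene known from its amplification in sarcomas, which was measured at 10.38, 10.48 and 10.57 in controls 1 to 3 and at 10.22, 10.26 and 10.34 in mutants 1 to 3. All mutants lay below all controls, control 1 by 0.046. The difference was -0.20 (95% interval -0.35 to -0.057, limma adjusted p = 0.0699), and it was -0.25 and passed without control 1 (limma adjusted p = 0.0203).

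Tspan6, linked to exosomes and to the handling of the amyloid precursor protein, was measured at 8.45, 8.35 and 8.32 in controls and at 8.29, 8.16 and 8.17 in mutants. The groups did not overlap. The difference was -0.17 (95% interval -0.31 to -0.029, limma adjusted p = 0.110). Centred on array medians, Tspan31 and Tspan6 passed as lower (limma adjusted p = 0.0292 and 0.0454).

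Tspan13, known to modulate a presynaptic calcium channel, was measured at 12.12, 12.19 and 12.17 in controls and at 12.02, 12.07 and 12.09 in mutants. Every mutant lay below every control, but the difference of -0.097 did not pass (limma adjusted p = 0.279). Tspan18, which aids the calcium channel Orai1, was measured at 10.42, 10.40 and 10.24 in controls and at 9.98, 10.43 and 9.99 in mutants. Mutant 2 lay above all controls while mutants 1 and 3 lay below them. The difference was -0.22 with all arrays (limma adjusted p = 0.288) and -0.36 without mutant 2 (limma adjusted p = 0.0233).

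The groups overlapped in the other 8, and their limma adjusted p lay between 0.549 and 0.948. Tspan3 and Tspan2, which are known in oligodendrocytes, differed by -0.032 (95% interval -0.17 to 0.10) and -0.036 (-0.26 to 0.18). Tspan9, a platelet tetraspanin, differed by -0.033, Tspan11 by -0.044 and Tspan12, a part of the Norrin receptor of retinal vessels, by 0.010. Tspan11 was measured at 7.81 in control 1 and at 7.35 and 7.52 in controls 2 and 3. Its difference ran from -0.15 to 0.092 over the 18 other settings. Tspan1 and Tspan8, known in epithelia, and Tspan32, known in leukocytes, lay under the array median on all 6 arrays and differed by -0.068, -0.055 and -0.033. The arrays carry no measure of detection here, so a low value does not show that a transcript was absent.

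Over the 20 members that did not pass, 18 differences lay within 0.25 of 0, and 17 of the 20 intervals held 0. The widest bounds were -0.56 and 0.60, so changes of that size in Cd53 and Cd63 are within the intervals. The median SD over the 26 members was 0.096 in controls and 0.066 in mutants, and the control SD was the larger one in 15 of them and in 63.2% of all genes. The 4 tetraspanins that the naming rule leaves out, Upk1a, Upk1b, Prph2 and Rom1, differed by 0.15, -0.12, -0.081 and -0.031, and none passed with limma. At an unadjusted limma p under 0.05, 1 of them was higher, beside 5419 of all 19938 genes in either direction. None of them passed with the methods' t-test after adjustment.

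Among 22 measured membrane partners of tetraspanins, 8 were higher in mutants and none was lower with limma, with a median difference of 0.082. The share that was higher was 36.4%, beside 9.23% of all genes. At an unadjusted limma p under 0.05, 9 were higher and 1 was lower, beside 5419 of all 19938 genes in either direction. The methods' t-test with adjustment gave 6 higher and 0 lower partners. Without mutant 1, 5 were higher, and without control 1, 1 was lower. Ndp, which encodes Norrin, was measured at 6.43, 6.44 and 6.59 in controls and at 7.47, 7.34 and 7.34 in mutants, a difference of 0.90 (limma adjusted p = 5.75e-05). Its co-receptor Lrp5 was higher by 0.58 (adjusted p = 2.21e-04), and both had groups that did not overlap. The receptor Fzd4, which Tspan12 assists, differed by 0.20 (adjusted p = 0.214), and by 0.29 without control 1 (limma adjusted p = 0.0385).

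The partners of Cd9 and Cd81 include 3 immunoglobulin-like proteins. Igsf3 was measured at 9.11 ± 0.095 in controls and at 9.61 ± 0.067 in mutants (mean ± SD, n = 3), a difference of 0.51 (limma adjusted p = 0.00120). Ptgfrn was higher by 0.33 (adjusted p = 0.00545). Igsf8 had groups that did not overlap, with a difference of 0.15 that missed the threshold (adjusted p = 0.0808). Prkcb, a protein kinase C that tetraspanins bind, was higher by 0.63 (adjusted p = 2.44e-04). Orai1, the channel aided by Tspan18, differed by -0.012 (adjusted p = 0.923).

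Integrins went in both directions, with 3 of 26 higher and 6 lower (11.5% and 23.1%, beside 9.23% and 5.93% of all genes) and a median of -0.016. Itgav was measured at 10.43, 10.57 and 10.48 in controls and at 9.19, 8.95 and 8.91 in mutants, a difference of -1.48 (limma adjusted p = 1.20e-05). Itgb8, which pairs with it, differed by -0.90 (adjusted p = 1.89e-05), Itga8 by -1.39 (adjusted p = 1.16e-04) and Itga11 by -1.11 (adjusted p = 9.52e-05). These 4 passed as lower without any 1 array. Itgb3, another partner of Itgav, was measured at 5.73, 5.77 and 5.98 in controls and at 6.88, 6.96 and 7.24 in mutants. It was 2.30-fold higher (95% interval of the log2 difference 0.97 to 1.44, limma adjusted p = 1.23e-04) and passed without any 1 array.

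The integrins to which Cd151 binds gave smaller values. Itga3 was measured at 6.05 ± 0.10 in controls and at 6.45 ± 0.13 in mutants (mean ± SD, n = 3), a difference of 0.40 (limma adjusted p = 0.0101, and 0.0511 without mutant 1). Itgb1 was measured at 7.65, 7.53 and 7.57 in controls and at 7.75, 7.89 and 7.96 in mutants, a difference of 0.28 (limma adjusted p = 0.0249). Neither overlapped between the groups. The call of Itgb1 was lost without control 2, control 3, mutant 2 or mutant 3 (limma adjusted p = 0.0995, 0.0599, 0.0922 and 0.103). With the methods' t-test after adjustment neither Itga3 nor Itgb1 passed. Itga6 differed by -0.014 (95% interval -0.26 to 0.23, limma adjusted p = 0.961).

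**Figure D5:**
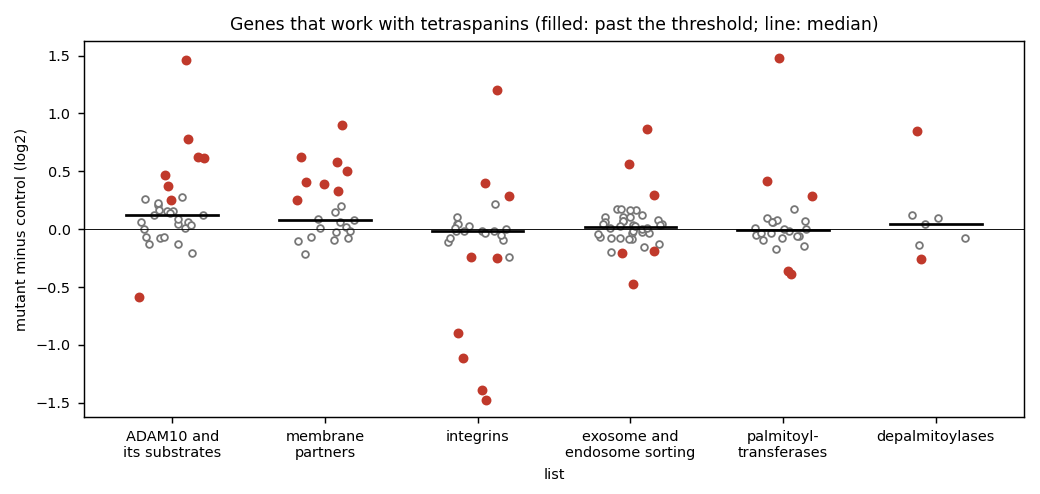
Mutant minus control difference (y axis, log2) of each gene in 6 lists of genes that work with tetraspanins (x axis), filled where the adjusted p is under 0.05, with the median of each list as a line. The medians lie between -0.016 and 0.12, membrane partners have 8 filled points above 0, and integrins have the lowest values, down to -1.48.

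Of 42 genes of exosome and endosome sorting, the route of Cd63, 3 were higher and 3 lower, 7.14% in each direction beside 9.23% and 5.93% of all genes. The median was 0.019, and 1 was lower without control 2, mutant 1, mutant 2 or mutant 3. The GTPases Rab27a and Rab27b, which dock multivesicular bodies at the membrane, went in opposite directions. Rab27b was measured at 8.61, 8.59 and 8.52 in controls and at 8.07, 8.05 and 8.19 in mutants, a difference of -0.47 (limma adjusted p = 0.00104). Rab27a was measured at 7.63, 7.73 and 7.69 in controls and at 8.39, 8.07 and 8.26 in mutants, a difference of 0.56 (limma adjusted p = 0.00201). With the methods' t-test after adjustment Rab27b passed and Rab27a did not. Sdc3, a syndecan, was higher by 0.87 (adjusted p = 1.78e-04), and Ap3m2, a subunit of the AP-3 adaptor, by 0.29 (adjusted p = 0.00776).

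Of 24 palmitoyltransferases, 3 were higher and 2 lower, 12.5% and 8.33% beside 9.23% and 5.93% of all genes. The median was -0.0097, and 1 was lower without control 2, mutant 1, mutant 2 or mutant 3. Zdhhc2, known to palmitoylate Cd9 and Cd151, was measured at 9.22, 9.30 and 9.21 in controls and at 8.85, 8.84 and 8.88 in mutants, a difference of -0.39 (limma adjusted p = 0.00142). All mutants lay below all controls. Zdhhc22 was measured at 8.29 ± 0.36 in controls and at 9.77 ± 0.040 in mutants (mean ± SD, n = 3), a difference of 1.48 (adjusted p = 2.88e-04). Zdhhc14 and Zdhhc9 were higher by 0.42 and 0.29 (limma adjusted p = 0.00487 and 0.00860), and Zdhhc14 missed the threshold with the methods' t-test after adjustment.

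Of 7 depalmitoylases, 1 was higher and 1 lower, 14.3% in each direction beside 9.23% and 5.93% of all genes. Lypla2, which removes palmitate from proteins, was measured at 8.51, 8.51 and 8.38 in controls and at 9.29, 9.39 and 9.27 in mutants, a difference of 0.85 (limma adjusted p = 4.81e-05). Abhd17c was lower, with a difference of -0.26 (limma adjusted p = 0.0207). The call of Abhd17c was lost without control 2, mutant 1, mutant 2 or mutant 3 (limma adjusted p = 0.0741, 0.0754, 0.0679 and 0.0778), and with the methods' t-test after adjustment.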

How the data were processed

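The authors deposited log2 expression values, 1 per probe set for each of the 6 arrays. The submitters' processing notes name Affymetrix Expression Console and RMA, which corrects background, sets the arrays to a common distribution and summarises probes. Tool versions, like the build behind the probe annotation, were not given in the sources used here. Sample titles gave the groups and replicate numbers.

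The table holds 35556 probe sets, of which 21789 carry the name of 1 gene in the platform annotation, 1621 carry several and 12146 carry none there. For each gene, the 1 whose average across all arrays was highest was kept, which left 19938 genes with no filter on level. A moderated linear model (limma 3.58.1, R 4.3.3) without covariates compared mutants with controls for every gene, p-values were adjusted by the Benjamini-Hochberg method across the whole table, and 0.05 was the threshold. "Higher" and "lower" refer to mutants and to genes past that threshold, and intervals are 95% intervals of the same fit. On simulated data of 19938 genes, 50 genes each were changed 1.25-fold, 1.5-fold, 2-fold and 4-fold. This fit recovered 44%, 80%, 100% and 100% of them and called 9 of 19738 unchanged genes. Far more genes passed in the arrays (1840 higher and 1183 lower). The adjustment depends on how many genes change, so these rates need not hold for the arrays.

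The members, gene lists and tests were chosen with earlier results of these data known. The text names every member, up to 4 genes of each partner list with the smallest p, Adam10, up to 2 genes of each marker list, and Bcl11b. Cdh2, L1cam, Aplp2, Ptgfrn, Igsf8, Fzd4, Orai1, Itga3, Itga6, Itgb1, Itgb3, Prox1 and Calb1 were named beyond this, after their values were seen. The same holds for the neighbours of Cd151, Tspan4 and Tspan17, and for the TspanC8 group, which comes from background knowledge. Some listed genes are not reported here.

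Start-site sequences and gene order come from RefSeq tables of GRCm38.p6. Motifs were counted on both strands in the 250 bases before each start. Other settings were another test, prior, array weights, scaling, dim filter, probe set rule, replicate block, threshold and the removal of each array. The other test, called the methods' t-test here, is the unpaired t-test that the methods name for comparisons between groups in general. For the arrays they name an analysis tool but state no test or threshold.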

Additional observations from a re-analysis of the deposited data

How the results depend on the processing

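The differences of the 26 tetraspanins were recomputed under 18 alternatives, and no difference past the threshold, before or after, changed its direction. Of 465 values of members, 421 kept direction and side of the threshold, 17 were no longer past it, 16 came past it and 11, of Cd37, Tspan2, Tspan9, Tspan11, Tspan12 and Tspan32, changed sign with neither value past it. Cd151 and Tspan33 lost the call only with a fold of at least 1.5. Under that fold 2 tetraspanins, Tspan4 and Tspan17, were higher and 0 lower (463 and 246 of all genes). These 2 genes led to the choice of the family, and every count of higher tetraspanins in this section includes them. Without them, 0 to 3 members were higher and 0 to 5 lower over all alternatives. At an adjusted p under 0.01, 1 tetraspanin was lower, and 1018 and 536 of all genes were higher and lower. The methods' t-test gave 694 higher and 447 lower genes after adjustment, and without it 5 lower tetraspanins and 1995 lower genes. The trended, robust prior gave 1 lower tetraspanin, since Tspan15 missed the threshold (limma adjusted p = 0.0564). Array weights gave 4 lower tetraspanins, with 3156 and 2371 genes, and added Cd9, Cd53 and Tspan31. Centring on array medians gave 4 lower tetraspanins and 1800 lower genes. Without 1 array at a time, 3 to 4 tetraspanins were higher and 1 to 4 lower, and over all genes 1206 to 2756 were higher and 678 to 1731 lower. Over all alternatives, the number of higher genes ran from 2 to 11 in the ADAM10 system, 2 to 10 in membrane partners, 1 to 4 in integrins, 1 to 6 in sorting and 1 to 4 in palmitoyltransferases, and that of lower genes from 0 to 3, 0 to 1, 4 to 7, 0 to 5 and 0 to 2. The causes of these shifts were not tested.

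With the replicate number as a block (replicate block), 5 tetraspanins were higher and 2 lower, with 1925 and 1251 genes, and Cd9 was added (limma adjusted p = 0.0341). The deviations of same-numbered arrays correlated at 0.16, -0.033 and 0.12, so the numbers were not taken as pairs, and the block changed no other call among the tetraspanins. A filter on dim genes also added Cd9 (limma adjusted p = 0.0498), and renewed quantile normalization added Tspan6 (0.0220).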
